A study of Macaca mulatta with 136 samples.

Results

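Complement is a set of plasma and membrane proteins, and the genes described here encode members of its initiating complex, its central component, its amplification loop and its regulators. They were chosen by symbol from a list of 9: C1R, C1S, SERPING1, C3, CFD, CFB, CFI, CD46 and CD59. Of these, 8 symbols were found among the 19422 gene identifiers of the deposited values, on 9 identifiers, because C1R stands on a pair of them. CFB had no row under its own symbol. The tissue came from 2 adult rhesus macaques, RM03 and RM04, right and left eye of each, taken after death and with no treatment. From each eye, punches of 2 mm were cut at 4 sites, namely fovea/macula, perimacula, nasal retina and a site labelled peripheral (the protocol in the labels lists a temporal region in its place), and each punch was parted into neural retina and RPE/choroid, the retinal pigment epithelium together with the vessels, stroma and pigment cells behind it. With 4 eyes per tissue and location there were 32 libraries, from RNA with an integrity number above 6.5. The 4 eyes came from 2 animals, so fellow eyes share an animal and p-values rest on few donors.

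In the classical pathway, the proteases C1R and C1S are activated within the C1 complex on a surface and cleave the components that build the enzyme acting on C3. In the alternative pathway, factor D (CFD) cleaves factor B (CFB) bound to C3 fragments, which amplifies C3 cleavage. SERPING1 inhibits C1R and C1S, factor I (CFI) cleaves C3 and C4 fragments with the help of cofactors such as CD46, and CD59 blocks the last step, assembly of the membrane attack complex. Variants of several complement genes are associated with age-related macular degeneration, a disease of the macular RPE, choroid and photoreceptors, which is why their levels at the macula are of interest.

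Levels are given as CPM, the estimated counts of a gene, summed over the sequencing lanes of a library and scaled to a common library size by library total and TMM factor. The library totals lay between 42448891 and 78574034 estimated counts. CPM is not divided by gene length, so levels are compared between samples and not between genes. Fovea, perimacula and nasal libraries shared 2 flow cells, and the periphery libraries were run on 1 other, so location and flow cell cannot be told apart in any comparison with the periphery. In RPE/choroid, the summed level of 7 RPE marker genes varied from 2958 CPM in the peripheral library of the left eye of RM03 to 19731 CPM in that of the left eye of RM04. Differences are log2 fold changes from edgeR's quasi-likelihood test with the animal as covariate, given with their standard error (SE), and a gene was called where its p-value adjusted over all genes tested was under 0.05. In such bulk samples, fewer cells of a type and less RNA per cell cannot be told apart.

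All 8 symbols were higher in RPE/choroid than in retina at each of the 4 locations, and on the main identifier of each, the 4 RPE/choroid eyes lay above the 4 retina eyes at every location. At the fovea, 8 of the 9 identifiers were called, where 74.6% of all genes were called and 36.8% were called as higher in RPE/choroid. Elsewhere 9 of 9 were called, against a background of 75.6% at the perimacula, 76.2% nasally and 74.3% peripherally, or 37.8%, 38.6% and 37.1% as higher in RPE/choroid. A separation of the eyes of the tissues, in either direction, was seen for 67.9% of genes at the fovea, 68.3% at the perimacula, 70.6% nasally and 60.1% peripherally. The fold between the tissues differed widely among the genes. At the fovea, C1S was 186-fold, CFD 166-fold, SERPING1 63.5-fold, C1R 56.1-fold and C3 30.1-fold higher in RPE/choroid, whereas CD46, CFI and CD59 were 5.36-fold, 5.33-fold and 3.56-fold higher. The adjusted p of these 8 differences at the fovea was at most 1.23e-10. At the periphery the folds were smaller for 7 of the 8 and lay between 2.30 for CD46 and 118 for C1S, and CD59 was at 3.59.

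**Figure D1:**
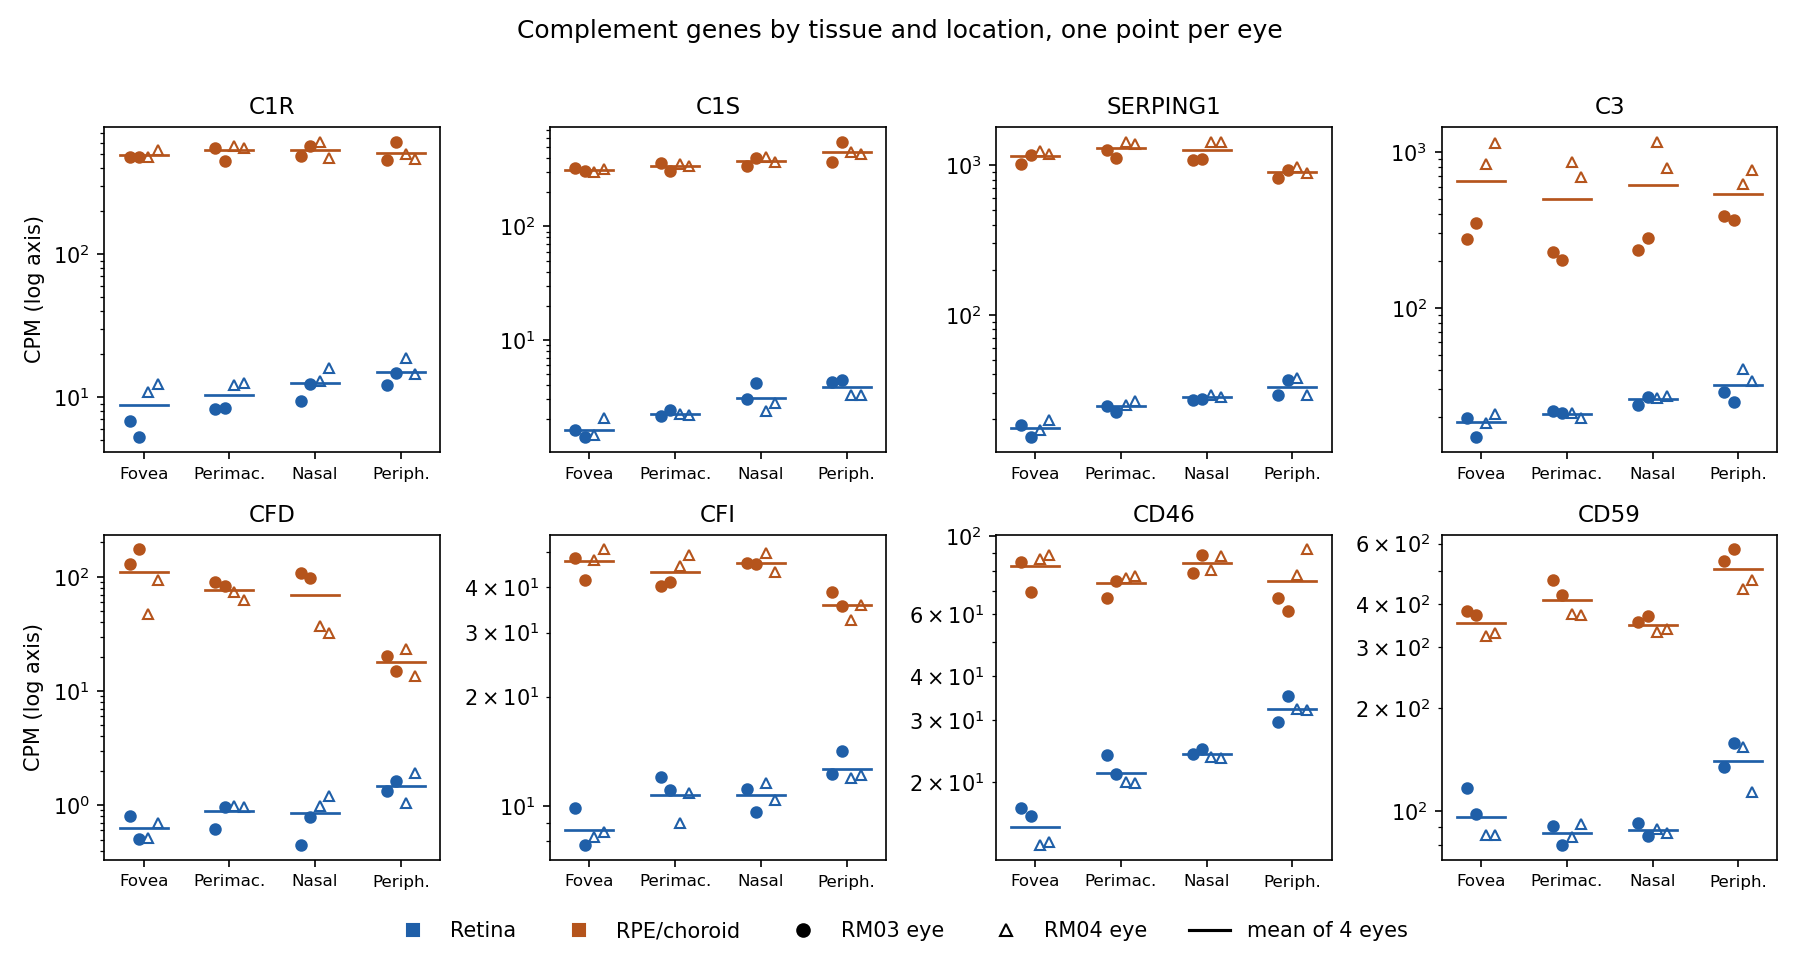
CPM on a log axis for the 8 complement genes at 4 locations, with 1 point for each eye (circles, RM03; triangles, RM04) and a line at the mean of 4 eyes, blue for retina and brown for RPE/choroid. The tissues do not overlap for any gene, the retina mean of each gene is higher at the periphery than at the fovea (single eyes overlap for C1R and CD59), and CFD in RPE/choroid falls from a mean of 111 CPM at the fovea to 18.02 CPM at the periphery.

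In retina, complement expression was lower at the fovea than at the periphery for every tested member. All 8 identifiers tested were called as lower at the fovea, where 67.0% of all genes were called and 36% were called in that direction; the median log2 fold change was -0.82 over the 8 and -0.06 over all genes tested. The folds between periphery and fovea ranged from 1.41 for CD59 and CFI to 2.28 for CFD, and each gene was higher at the periphery in 4 of 4 eyes. For 6 of the 8, the 4 foveal eyes lay wholly below the 4 peripheral eyes, and C1R and CD59 overlapped. A lack of overlap in either direction was seen for 53.3% of genes. The count of 8 held under all alternatives listed for this comparison, including the removal of any eye.

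Fovea, perimacula and nasal libraries shared flow cells. Between the fovea and the nasal location, 6 of 8 were called, all lower at the fovea (background 52.2%, and 27.2% in that direction). They were C1S at -0.87 (SE 0.17, adjusted p = 0.000558), CD46 at -0.65 (SE 0.08, adjusted p = 7.27e-06), SERPING1 at -0.63 (SE 0.09, adjusted p = 5.39e-05), C1R at -0.54 (SE 0.15, adjusted p = 0.00679), C3 at -0.47 (SE 0.12, adjusted p = 0.00481) and CFI at -0.28 (SE 0.10, adjusted p = 0.0282). CFD, at -0.38 (adjusted p = 0.276), was not called, nor was CD59, whose estimate had the opposite sign (0.16, interval of 2 SE on either side -0.05 to 0.36). The calls of C1R and CFI were lost on leaving out an eye: without the left eye of RM03, C1R stood at -0.32 (adjusted p = 0.0613), and without the right eye of RM04, CFI stood at -0.21 (adjusted p = 0.157). C1R was also lost without the right eye of RM03 (adjusted p = 0.0576), and CFI without the right eye of RM03 or the left eye of RM04 (adjusted p = 0.101 and 0.124). Between fovea and perimacula, 2 of 8 were called as lower at the fovea (background 35.2%, and 16.2% in that direction), CD46 at -0.46 and SERPING1 at -0.43, the latter not without the right eye of RM04 (-0.41, adjusted p = 0.0566); CD59 again had the opposite sign (0.20, interval -0.03 to 0.43). Between perimacula and nasal location none of 8 was called by edgeR (background 1.49%), and DESeq2 called none. An unadjusted p under 0.05 was found there for 3 of 8, and for 2569 of 15486 genes tested. Against the periphery, 7 of 8 were called lower at the perimacula (background 50.3%, and 26.9% in that direction) and 3 of 8, CD46, CFD and CD59, at the nasal location (background 48.7%).

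In RPE/choroid, the members did not move together. Between the fovea and the periphery 5 of 9 identifiers were called (background 44.1%), with 3 higher at the fovea, CFD, CFI and SERPING1 (background 21.2%), and 2 higher at the periphery, C1S and CD59 (background 22.9%). For all 5, the foveal and peripheral eyes did not overlap, which was so for 31% of genes. C3, CD46 and both identifiers of C1R were not called. The difference that stood apart in size was that of CFD, at 2.52 on the log2 scale, beside absolute values of at most 0.55 for the main identifiers of the other 7 symbols. None of 9 was called by edgeR between the fovea and the perimacula or between the fovea and the nasal location. There, 0.0447% and 0.361% of all genes were called. An unadjusted p under 0.05 was found for 3 and 2 identifiers, and for 1678 of 15674 and 2449 of 15789 genes tested. DESeq2 called CD59 between fovea and perimacula (-0.21, adjusted p = 0.0152) and none against the nasal location. Between perimacula and periphery 5 of 9 were called (background 34.9%), and between nasal location and periphery 4 of 9 (background 44.6%). With the perimacula and nasal location compared, only CD59 was called, at 0.22 higher at the perimacula (adjusted p = 0.0491; background 3.07%), and with the eye as a replicate block it was not (adjusted p = 0.0824).

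**Figure D2:**
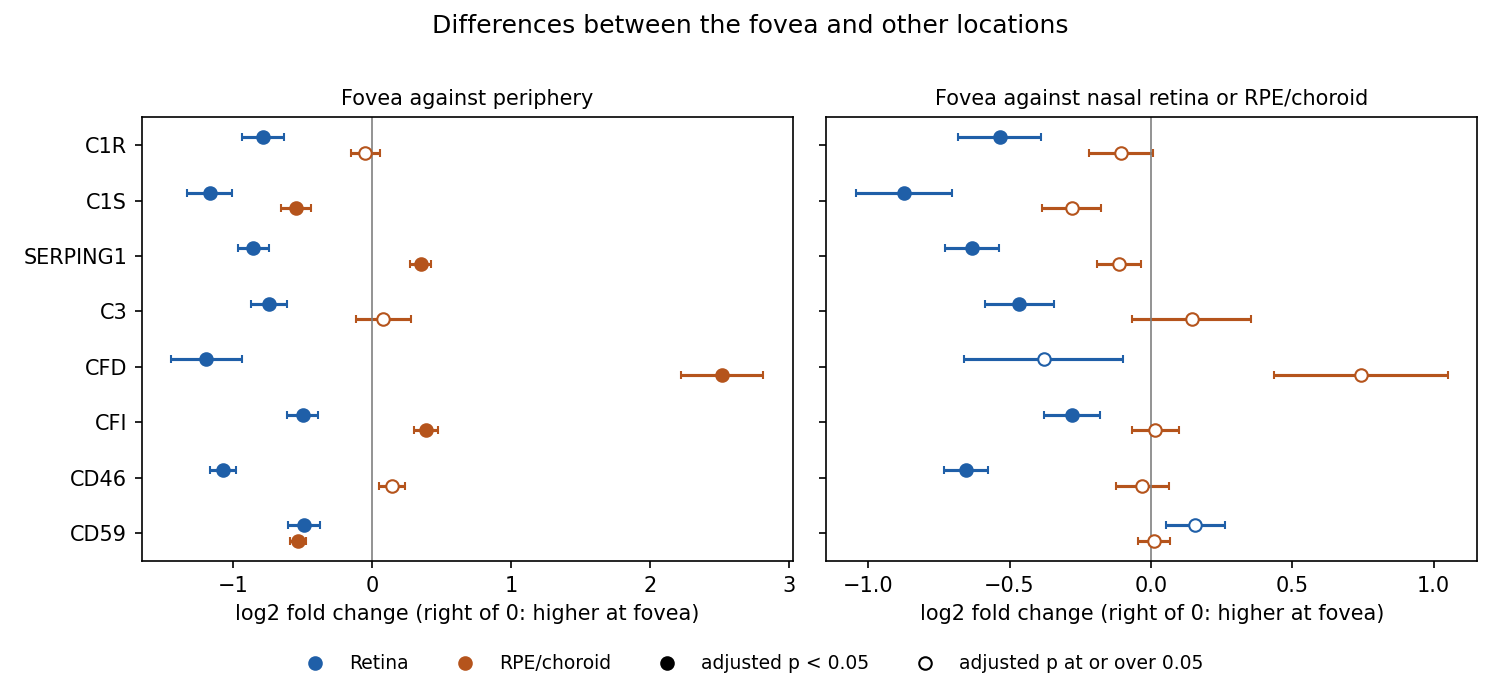
Log2 fold changes with SE bars for the 8 genes, fovea against periphery on the left and fovea against the nasal location on the right, in retina (blue) and RPE/choroid (brown); filled points have an adjusted p under 0.05 and open points do not. On the left, the 8 retina points lie at or below -0.49, and the RPE/choroid points spread from -0.55 for C1S to 2.52 for CFD.

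Among the initiating proteases of the classical pathway, C1S was low in retina, with 79 to 123 estimated counts per library at the fovea. Its retinal level in the right and left eye of RM03 and the right and left eye of RM04 was 1.62, 1.39, 1.45 and 2.04 CPM at the fovea, and 4.28, 4.44, 3.31 and 3.25 CPM at the periphery. The mean was 1.63 ± 0.292 CPM at the fovea, 2.25 ± 0.124 at the perimacula, 3.10 ± 0.787 nasally and 3.82 ± 0.628 at the periphery (SD, n = 4). The foveal eyes lay below those of every other location, and the log2 fold change to the periphery was -1.17 (SE 0.16, adjusted p = 5.09e-05). In RPE/choroid the order of the locations was the same, with 324, 306, 300 and 317 CPM at the fovea (mean 312) against 368, 557, 454 and 437 CPM at the periphery (-0.55, SE 0.11, adjusted p = 0.00195). No step between neighbouring locations in this order was called in either tissue. The library with 557 CPM, the left eye of RM03, was also the peripheral library with the lowest RPE marker sum.

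C1R, the partner protease of C1S and its neighbour in the RefSeq annotation of the T2T-MMU8v2.0 assembly, behaved like C1S in retina but not in RPE/choroid. Its retinal level rose from 6.79, 5.24, 10.9 and 12.3 CPM at the fovea to 12.2, 14.8, 18.6 and 14.4 CPM at the periphery (-0.78, SE 0.15, adjusted p = 0.000623). The eyes of RM04 were above those of RM03 at the fovea, the perimacula and the nasal location. The foveal and peripheral groups overlapped although each eye rose. In RPE/choroid C1R was level: 493 ± 28.5 CPM at the fovea, 530 ± 56.7 at the perimacula, 531 ± 64.6 nasally and 506 ± 73.7 at the periphery (SD, n = 4). The interval of the fovea-to-periphery difference, at 2 SE on either side, ran from -0.26 to 0.17 on the log2 scale. The other C1R identifier, ENSMMUG00000006470, held 224 estimated counts over all 32 libraries, was tested in RPE/choroid alone, and was called at no pair of locations.

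SERPING1, the inhibitor of both proteases, moved in opposite directions in the 2 tissues. In retina it was at 18.4, 15.2, 17.1 and 19.9 CPM at the fovea and at 28.9, 36.4, 37.7 and 29.1 CPM at the periphery, with no overlap (-0.85, SE 0.11, adjusted p = 3.19e-05). In RPE/choroid it was at 1026, 1165, 1235 and 1181 CPM at the fovea and at 816, 925, 967 and 884 CPM at the periphery, again with no overlap (0.35, SE 0.08, adjusted p = 0.00355). Its mean in RPE/choroid was 1306 ± 142 CPM at the perimacula and 1255 ± 192 CPM nasally (SD, n = 4), neither of which was called against the fovea.

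C3, on which all pathways converge, rose in retina from 19.6, 14.7, 18.3 and 20.7 CPM at the fovea to 28.8, 24.9, 40.5 and 33.9 CPM at the periphery (-0.74, SE 0.13, adjusted p = 0.0003). In RPE/choroid the animal rather than the location separated the libraries. C3 was at 276 and 351 CPM in the foveal eyes of RM03 and at 837 and 1142 CPM in those of RM04. Over all locations the 8 libraries of RM03 lay between 204 and 390 CPM and the 8 of RM04 between 626 and 1166 CPM, a ratio of means of 2.96. This lack of overlap between the animals was seen for 5.09% of genes in RPE/choroid, and among the members for C3 alone. In retina the C3 levels of the animals overlapped, with a ratio of 1.14; there, no overlap was seen for 3.79% of genes and for no member. With 2 animals the difference has no replicate check, and what sets the animals apart is not in the labels. The study's methods give the 2 animals different ages without saying which is RM03, so age and animal cannot be told apart. The summed macrophage and microglia markers of RPE/choroid also separated the animals, in the opposite direction, at 1593 to 2153 CPM in RM03 and 914 to 1335 CPM in RM04; their part in the C3 difference was not tested. The fovea-to-periphery difference in RPE/choroid was 0.08 with an interval of -0.31 to 0.48. The animals went in opposite directions: the ratio of fovea to periphery was 0.708 and 0.959 in the eyes of RM03, and 1.34 and 1.48 in those of RM04. The ratio of RM04 to RM03 was 3.16 at the fovea, 3.61 at the perimacula, 3.79 nasally and 1.85 at the periphery.

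Factor D, the protease that starts amplification, had the steepest profile. In RPE/choroid CFD was at 129, 174, 47.6 and 93.3 CPM at the fovea and at 20.3, 15.03, 23.3 and 13.5 CPM at the periphery. The groups did not overlap, and CFD was 5.73-fold higher at the fovea (log2 2.52, SE 0.30, adjusted p = 8.06e-05). It was 4.13-fold higher at the perimacula and 3.32-fold higher at the nasal location than at the periphery (adjusted p = 0.000386 and 0.000592). The step from the nasal location to the periphery was called, and those among fovea, perimacula and nasal location were not, although the fovea was above the nasal location in 4 of 4 eyes (0.74, SE 0.31, adjusted p = 0.271). The mean of RM03 was 2.15-fold that of RM04 at the fovea, 2.96-fold nasally and 1.27-fold at the perimacula. At these locations both eyes of RM03 lay above both eyes of RM04. At the periphery the animals did not differ in this way, with a ratio of 0.960. In retina CFD had low counts, with 26 to 163 estimated counts per library, and the direction was the opposite. It was at 0.7998, 0.505, 0.511 and 0.696 CPM at the fovea against 1.32, 1.63, 1.05 and 1.93 CPM at the periphery (-1.19, SE 0.25, adjusted p = 0.00125).

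**Figure D3:**
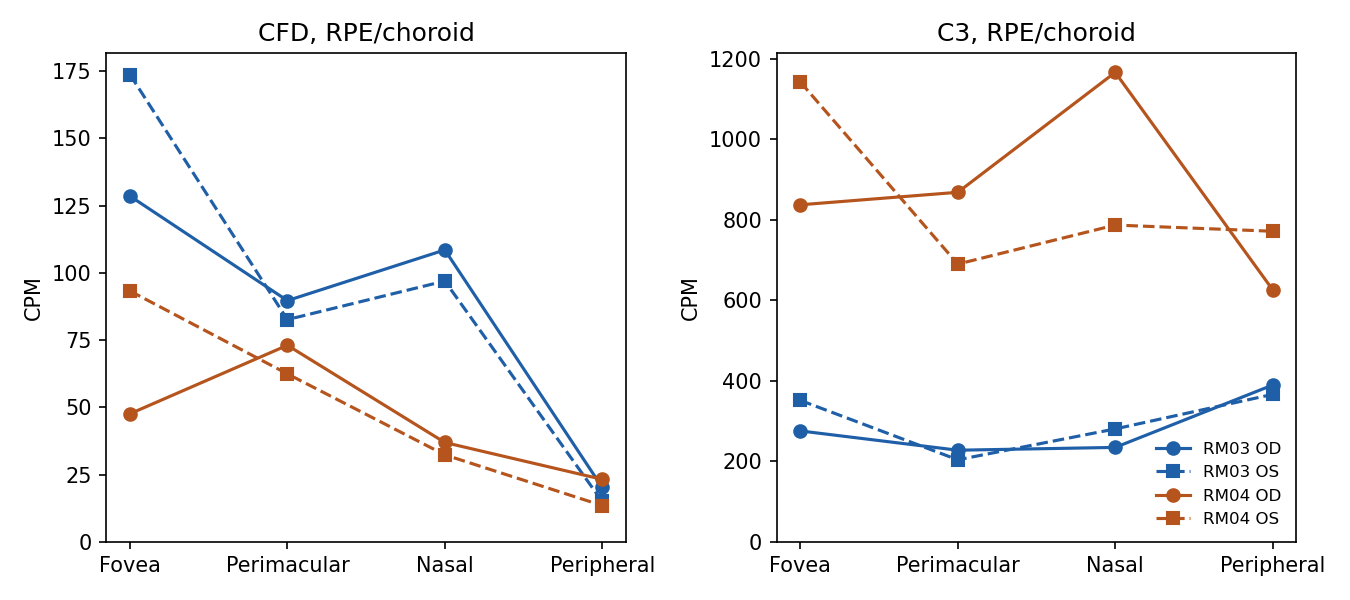
CPM of CFD (left) and C3 (right) in RPE/choroid at 4 locations, with a line for each eye, RM03 in blue and RM04 in brown. CFD drops at the periphery in all 4 eyes, to between 13.5 and 23.3 CPM, and the C3 lines of RM04 stay above those of RM03, which do not pass 390 CPM.

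Factor B could be read only with doubt. The identifier ENSMMUG00000000729 carries the symbol C2 in the deposited values and CFB in the gene name table used here; the genes of both proteins, the C3-cleaving proteases of the classical and the alternative pathway, are neighbours in RefSeq. It was not counted as a member. Its level in retina was 1.15, 0.696, 2.57 and 2.80 CPM at the fovea and 2.60, 5.35, 9.34 and 9.71 CPM at the periphery (-1.91, SE 0.22, adjusted p = 1.06e-05). Each eye rose, but the groups overlapped, as the foveal left eye of RM04 lay above the peripheral right eye of RM03. In RPE/choroid it was at 162, 156, 153 and 155 CPM at the fovea and at 232, 206, 362 and 353 CPM at the periphery, with no overlap (-0.84, SE 0.14, adjusted p = 0.000581).

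CFI, which inactivates C3 fragments, showed small and opposite differences in the tissues. In retina it was at 9.88, 7.80, 8.24 and 8.47 CPM at the fovea and 12.2, 14.1, 11.9 and 12.2 CPM at the periphery (-0.50, SE 0.11, adjusted p = 0.00154). In RPE/choroid it was at 48.0, 42.0, 47.5 and 50.8 CPM at the fovea and 38.8, 35.4, 32.5 and 35.7 CPM at the periphery (0.39, SE 0.09, adjusted p = 0.0045). Neither pair of groups overlapped. CD46, its membrane-bound cofactor, more than doubled in retina from 16.9, 15.96, 13.2 and 13.5 CPM at the fovea to 29.6, 35.3, 32.4 and 32.1 CPM at the periphery (-1.07, SE 0.09, adjusted p = 1.13e-06), with means of 21.2 ± 1.85 CPM at the perimacula and 23.96 ± 0.679 CPM nasally (SD, n = 4). The retinal steps from fovea to perimacula and from nasal location to periphery were both called for CD46. In RPE/choroid CD46 stayed between 61.5 and 91.9 CPM in all 16 libraries, and the fovea-to-periphery interval ran from -0.05 to 0.33.

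CD59, the inhibitor of the membrane attack complex, was called in the same direction between fovea and periphery in both tissues, as was C1S. In retina it was at 117, 98.0, 85.2 and 85.2 CPM at the fovea and 134, 158, 154 and 114 CPM at the periphery (-0.49, SE 0.12, adjusted p = 0.00247), and its lowest mean was at the perimacula, 86.6 ± 5.61 CPM (SD, n = 4). In RPE/choroid it was at 381, 373, 324 and 329 CPM at the fovea and 532, 577, 444 and 471 CPM at the periphery, with no overlap (-0.53, SE 0.06, adjusted p = 4.77e-05). The difference between the tissues in this contrast was 0.01 (SE 0.13, adjusted p = 0.951). Between fovea and perimacula the estimates had opposite signs, 0.20 in retina and -0.21 in RPE/choroid, and differed by 0.38 (interval 0.12 to 0.64), which was not called. In retina CD59 was higher at the periphery in each eye, but the foveal right eye of RM03, at 117 CPM, lay above the peripheral left eye of RM04, at 114 CPM.

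The test of the interaction of tissue and location asks whether the difference between fovea and periphery itself differed between the tissues. It was called for 6 of 9 identifiers (background 40.2%), each with a lower retina-minus-RPE/choroid difference at the fovea. CFD differed by -3.78 (SE 0.41, adjusted p = 8.62e-07), SERPING1 by -1.23 (SE 0.13, adjusted p = 6.79e-07), CD46 by -1.22 (SE 0.17, adjusted p = 1.65e-05) and CFI by -0.92 (SE 0.15, adjusted p = 5.33e-05). For CFD, SERPING1 and CFI the called differences within the tissues had opposite signs, and for CD46 the retinal difference alone was called. C1R (-0.72, adjusted p = 0.0186) and C1S (-0.65, adjusted p = 0.00581) passed as well, but lost the call when certain eyes were left out: without the right eye of RM03, C1R stood at -0.64 (adjusted p = 0.117) and C1S at -0.46 (adjusted p = 0.11), and without the right eye of RM04, C1R stood at -0.73 (adjusted p = 0.0727). With any eye left out the estimate stayed between -0.86 and -0.61 for C1R and between -0.83 and -0.46 for C1S. C3 was not called (-0.90, SE 0.43, adjusted p = 0.104). Over fovea and nasal location 3 of 9 were called (background 23.5%): CD46 at -0.66, C1S at -0.64 and SERPING1 at -0.55. Each was lost on leaving out an eye, CD46 without the right eye of RM04 (adjusted p = 0.113), SERPING1 without the left eye of RM03 (adjusted p = 0.0529), and C1S without either eye of RM03 or the right eye of RM04 (adjusted p = 0.112, 0.135 and 0.0591). Over fovea and perimacula CD46 was called at -0.65 (1 of 9, background 11.5%), and not without the right eye of RM03 (adjusted p = 0.168) or that of RM04 (adjusted p = 0.162).

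Markers of other tissue layers moved with the location as well. In retina libraries, 6 of 7 RPE markers were called as higher at the periphery than at the fovea (background 36% in that direction). Their summed level was 236 to 340 CPM at the fovea, 254 to 432 at the perimacula, 380 to 608 nasally and 760.4 to 1595 at the periphery. None of the 7 was at 0. Expressed as a share of the RPE/choroid level, the retina level of these markers rose from 1.93% at the fovea to 9.95% at the periphery. The corresponding shares were 0.522% and 0.842% for C1S, 1.53% and 3.68% for SERPING1, 1.79% and 2.97% for C1R, 2.82% and 5.95% for C3, and 0.567% and 8.23% for CFD. For CFI they were 18.3% and 35.4%, for CD46 18.1% and 43.4%, and for CD59 27.4% and 27.7%. At the fovea the single RPE markers spread from 1.09% for RPE65 to 16.6% for SERPINF1, and 5 of the 7 lay at or under 1.52%, so the order of the members against the RPE markers depends on the marker taken. The share of the summed fibroblast markers went the other way, from 3.31% at the fovea to 1.74% at the periphery. Those of smooth muscle and pericyte, endothelial, and macrophage and microglia markers rose, from 0.943% to 5.59%, 12.99% to 45.9% and 2.67% to 4.02%. The mean fibroblast sum rose in both tissues, from 106 to 145 CPM in retina and from 3200 to 8332 CPM in RPE/choroid. Among single fibroblast genes, the share of DCN fell from 0.222% to 0.111%. That of COL1A1 was 0.192% and 0.222%, of COL1A2 0.182% and 0.188%, and of COL3A1 0.132% and 0.134%. The part of carried-over RPE or choroid in the retinal levels was not tested.

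**Figure D4:**
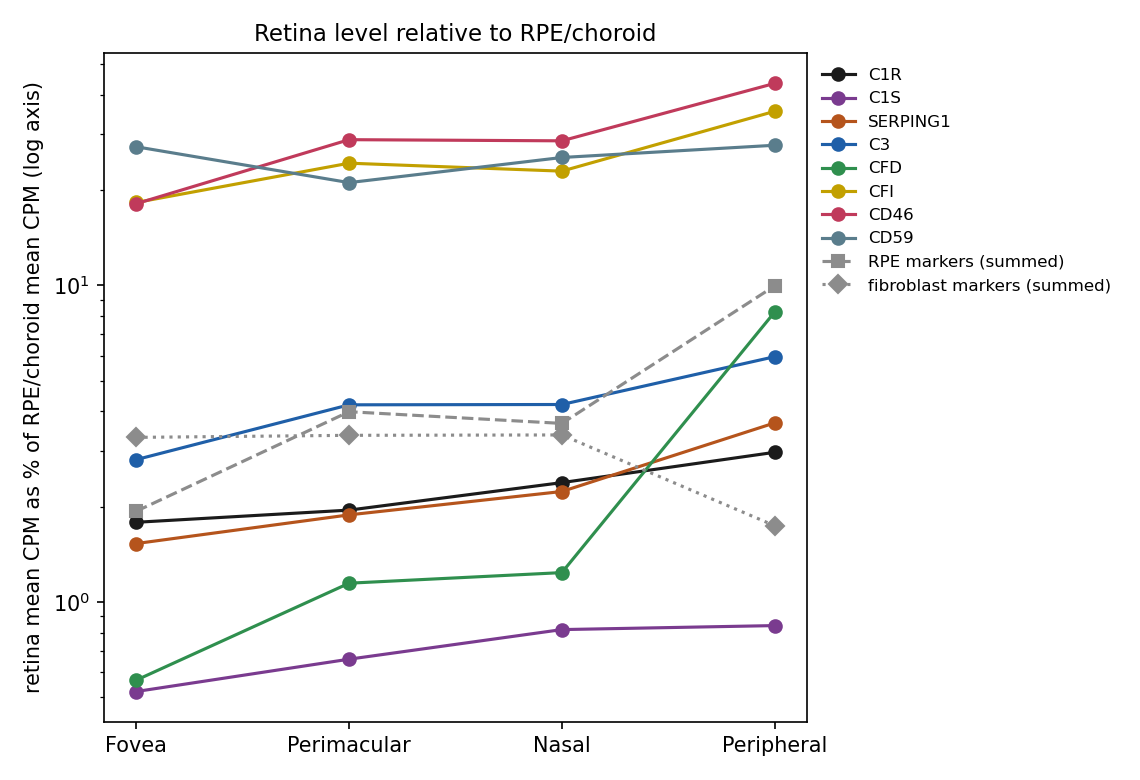
Mean retina CPM as a percentage of mean RPE/choroid CPM, on a log axis, at 4 locations for the 8 genes and, in grey, for the summed RPE and fibroblast markers. C1S stays under 1% at all locations, CFD rises from 0.567% to 8.23% between fovea and periphery, and CD46, CFI and CD59 lie above 18%.

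Markers of other cell types were read in retina as well, where 67.0% of all genes were called and 36% as higher at the periphery. Called as higher there were 9 of 9 rod markers and 8 of 8 tested Mueller glia and astrocyte markers. So were 7 of 13 macrophage and microglia markers and 4 of 8 endothelial markers. Of the endothelial markers, 1 was called as lower. At the fovea, 7 of 8 cone markers and 8 of 8 ganglion cell markers were called as higher. In retina, the summed Mueller glia and astrocyte level was 1456 to 1621 CPM at the fovea and 4715 to 6696 CPM at the periphery. That of macrophages and microglia was 34.3 to 43.3 CPM and 53.8 to 63.9 CPM. The Mueller glia and astrocyte list is not specific to retina here. In RPE/choroid it summed to 6278 to 7808 CPM at the fovea and 6450 to 9125 CPM at the periphery. In RPE/choroid 44.1% of all genes were called, 22.9% as higher at the periphery and 21.2% as higher at the fovea. There, 4 of 8 tested fibroblast markers were called as higher at the periphery and none as lower. Their sums were 2950 to 3839 CPM at the fovea and 5102 to 10287 CPM at the periphery. Smooth muscle and pericyte markers went the other way, 6 of 7 tested being higher at the fovea, with sums of 5949 to 8993 CPM there and 1017 to 2424 CPM at the periphery, and so did 8 of 8 endothelial markers (1760 to 2696 and 1125 to 1450 CPM). Of 13 macrophage and microglia markers 6 were higher at the periphery and 2 at the fovea, and of 7 Schwann cell and melanocyte markers 4 and 1. Of 7 RPE markers 1 was called in each direction, and of 4 blood cell markers 1 as higher at the fovea. At the periphery 1 of the 8 smooth muscle and pericyte entries was at 0 in RPE/choroid, and at the fovea 1 of the 9 fibroblast entries was at 0 in either tissue. Rod markers in RPE/choroid summed to 51.1 to 539 CPM at the fovea and 126 to 924 CPM at the periphery, and none of the 9 was called. The part of these cell types in the differences of the complement genes was not tested.

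The rest of the pathway was read from a list of 53 other complement genes, of which 49 were found, on 51 identifiers including the C2 entry. In retina, 23 of the 37 tested between fovea and periphery were called, 18 of them as higher at the periphery and 5 as higher at the fovea, with a median log2 fold change of -0.50. At 67.0% of all genes called, the share of the list was no higher than that of the background. C4BPB, a chain of the C4b-binding protein, was at 8.33 ± 6.51 CPM at the retinal fovea and 42.3 ± 31.5 CPM at the periphery (log2 -2.32, adjusted p = 6.21e-08). COLEC10, a collectin of the lectin pathway, passed at 0.067 and 0.279 CPM (adjusted p = 0.0199). Of the genes with the most counts in retina, clusterin (CLU), an inhibitor of the terminal complex, rose from 332 ± 14.9 to 961 ± 158 CPM, vitronectin (VTN), another, from 193 ± 50.5 to 486 ± 199 CPM, and C1QBP, which binds C1q, from 38.6 ± 2.17 to 51.2 ± 2.31 CPM on the identifier tested with the larger level (adjusted p = 3.13e-07, 1.1e-06 and 0.0015; SD, n = 4). CD55, which speeds the decay of the C3-cleaving enzymes, was not called in retina (37.1 and 35.02 CPM, adjusted p = 0.229).

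By role, 8 of 11 tested classical and lectin pathway activators were higher at the retinal periphery and none lower, where 36% of all genes were called in that direction, and of 7 tested alternative pathway and fluid-phase regulators 5 were higher and 1, CPN2, lower. Of 3 terminal components 2 were higher and C7 was lower, of 7 membrane regulators none was higher and 2, SUSD4 and CSMD3, were lower, and of 9 receptors 3 were higher and 1 lower. In RPE/choroid, 24 of 43 tested were called between fovea and periphery (background 44.1%), 16 higher at the periphery (background 22.9%) and 8 higher at the fovea (background 21.2%), with a median log2 fold change of -0.34 against -0.06 over all genes. There, 3 activators were higher at the periphery and 3 at the fovea, of 12 tested, and 2 and 2 of 9 alternative pathway and fluid-phase regulators. Of 4 terminal components 2 were higher at the periphery, of 8 membrane regulators 4 were higher at the periphery and 2 at the fovea, and of 10 receptors 5 and 1. The largest changes were CR1L at 0.0805 and 1.09 CPM at fovea and periphery (adjusted p = 0.03), CPN2, a subunit of the carboxypeptidase that inactivates anaphylatoxins, at 11.2 and 1.69 CPM (adjusted p = 0.000241), C4BPA at 2.16 and 8.98 CPM (adjusted p = 0.000244) and C8B, a component of the membrane attack complex, at 3.001 and 18.02 CPM (adjusted p = 0.00132). Of the genes with the most counts, C4B (908 and 1077 CPM) and CLU (1118 and 963 CPM) were not called, and C1QB, a chain of C1q, was higher at the periphery (388 ± 188 and 499 ± 125 CPM, adjusted p = 0.0167). Near-identical copies of C4 exist, so the C4B value may hold reads of another copy.

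**Figure D5:**
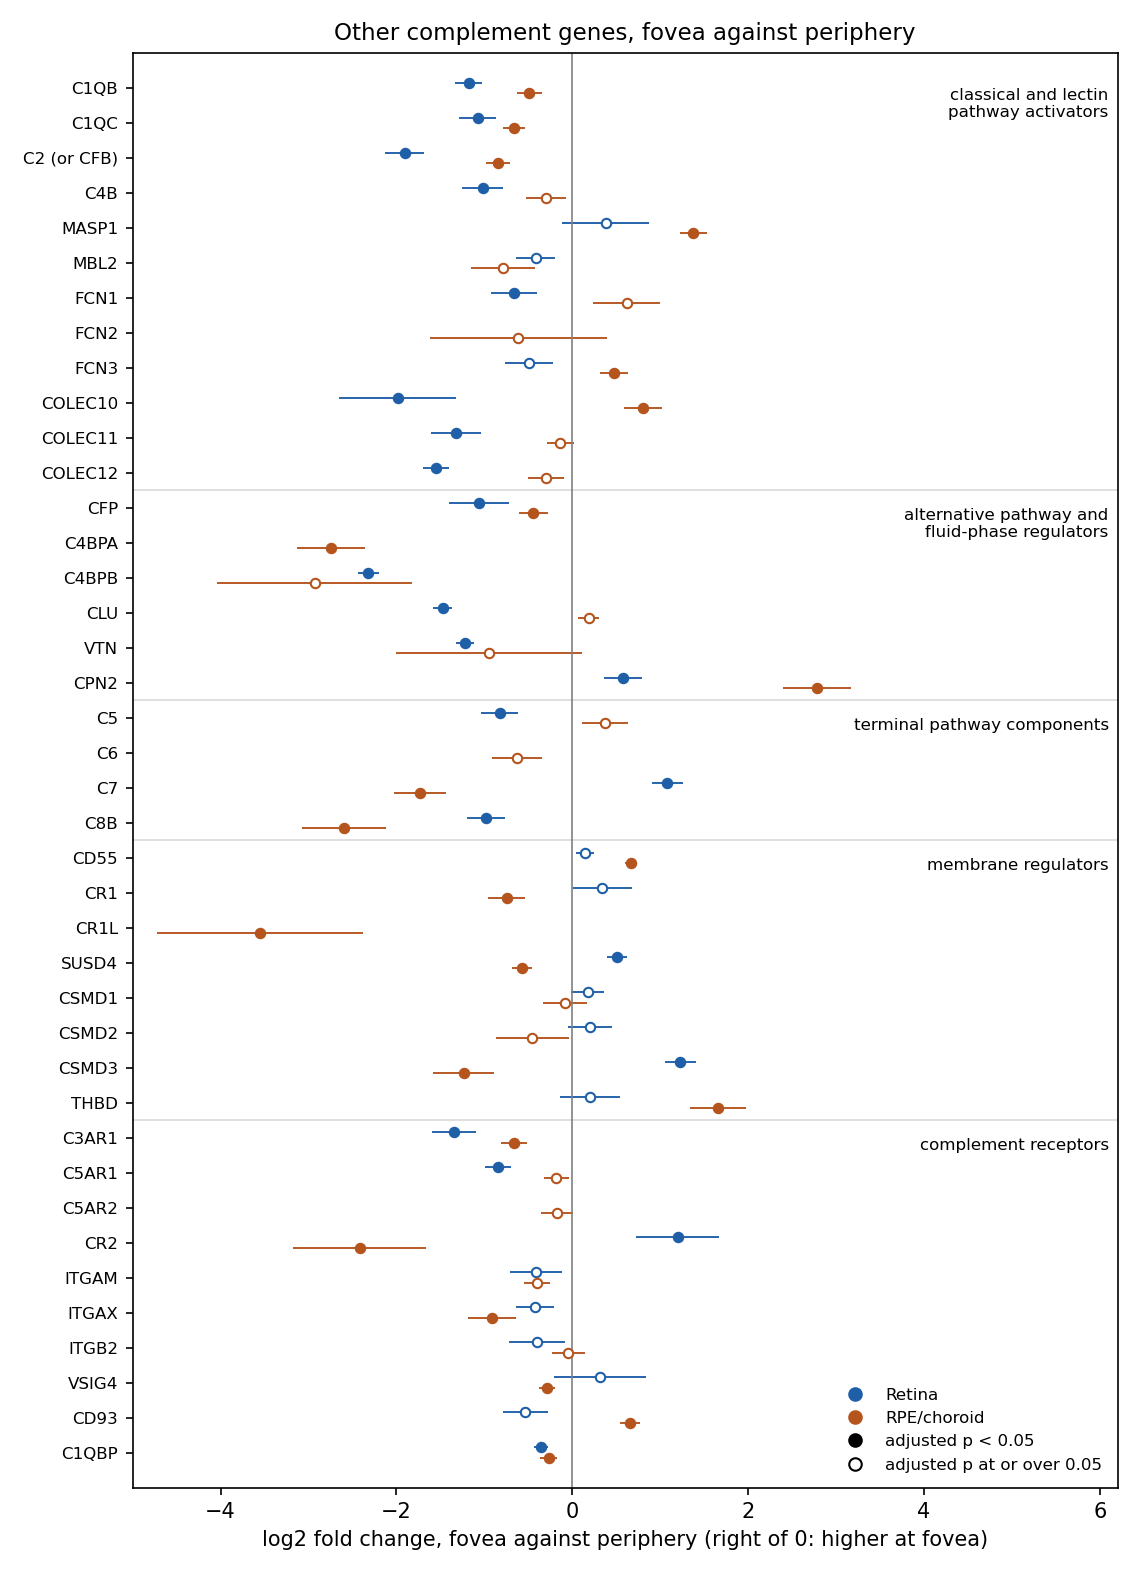
Log2 fold change with SE bars between fovea and periphery for tested genes of 5 lists of other complement genes, in retina (blue) and RPE/choroid (brown); filled points have an adjusted p under 0.05. The activators C1QB, C1QC and C2 (or CFB) lie left of 0 in both tissues.

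Across the 16 retina libraries the members varied together: Pearson's r between pairs of the 8 main identifiers on log2 CPM was positive in 28 of 28 pairs, with a median of 0.65 and a highest value of 0.90 for CD46 and SERPING1. Across the 16 RPE/choroid libraries it was positive in 15 of 28 pairs, with a median of 0.09 and a lowest value of -0.81 for CD59 and CFI. The libraries share animals, eyes and locations, so these values are descriptions. The genes most like CFD in RPE/choroid, among 12747 compared, were GP1BB (r = 0.96), CPXM1 (0.96) and ACTN1 (0.96). For C3 in RPE/choroid they were IFITM1 (0.96), RPL15 (0.95) and MT-ND1 (0.95), for SERPING1 HSPB6 (0.96), TBX2 (0.94) and POLE3 (0.93), for CFI ACSL3 (0.94), NOTCH2 (0.93) and OCLN (0.92), and for CD59 YPEL2, CCS and LGALS1 (0.97 each). Those of C1S were ANXA1 (0.90), BACH1 (0.89) and LIAS (0.89), those of CD46 TRPM7 (0.88), FOXRED2 (0.86) and ATM (0.85), and those of C1R reached only 0.69, with DPAGT1.

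In retina, among 12413 genes compared, the likest genes were COL9A1 (0.96), HEPH (0.95) and GULP1 (0.95) for C1S, MAPK4 (0.95), TIMP1 (0.94) and LAPTM5 (0.93) for C3, and KDR, DCHS2 and LOC100427346 (0.97 each) for SERPING1. They were TTLL4, GSKIP and PLSCR4 (0.98 each) for CD46, EEF1E1 (0.97), FAXDC2 (0.96) and RPL36AL (0.95) for CD59, NXN (0.94), HHIPL1 (0.94) and ZNF599 (0.93) for C1R, and NUP35 (0.93), KATNA1 (0.92) and ZNF790 (0.92) for CFI. CFD, at a mean of under 1 log2 CPM in retina, was nearest to ITGB3BP (0.88), TGDS (0.86) and LOC710358 (0.86).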

How the data were processed

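Per the labels and the study's methods, reads of each lane were assigned to Mmul_8.0.1 transcripts with Salmon 0.13, and the authors deposited 136 lane tables of length-scaled estimated counts per gene (expected counts, in a column named TPM). Here these were added up per library and rounded to whole numbers, and 10 repeated identifiers were dropped. edgeR 4.0.16 (R 4.3.3, limma 3.58.1) was run by its quasi-likelihood test, with filterByExpr (minimum count 10), TMM scaling and the monkey as covariate, and p-values were adjusted by Benjamini-Hochberg across every tested gene, over the 3 locations without the nasal libraries or, for contrasts with them, over all 4. Alternatives were DESeq2 1.42.0, RLE normalization, library totals alone, other filters, the eye as a replicate block, no covariate, the compared groups alone, nasal libraries included and each eye left out. Replicate numbers name the same eye at each location, so samples can be matched by eye. The main fits held the animal as covariate, and the eye was a block only in an alternative. Over the 1000 most variable genes, deviations from the group mean in the same eye correlated at 0.61 in retina and 0.48 in RPE/choroid on average. Once the animal's mean was removed, they correlated at -0.01 and -0.05 on average. The single correlations then ranged from -0.63 to 0.81 in retina and from -0.28 to 0.21 in RPE/choroid. The scripts were tested on simulated data.

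The members and all gene lists were chosen with earlier results of these data known. Genes named besides the members are, among other complement genes and in each tissue, the 4 called ones with the largest fovea-to-periphery change and the 4 with the highest mean CPM, and the 3 genes (mean of at least 1 log2 CPM, prior count 2) most correlated with a member; C1QC, C7, SUSD4 and CSMD3 were named after their values were seen. C1QA and C4A were not analysed here, nor were sequences, and some genes that the rule names or that the lists hold are not reported here. Figures were drawn with matplotlib 3.10.9.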

Additional observations from a re-analysis of the deposited data

Results flagged for a closer look

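In 9 genes (the 8 members and the C2 or CFB entry) and 8 groups of 4 eyes, 72 sets were searched for an eye far from the other 3, and 4 were found; chance gives about 1 in 20. C1R in RPE/choroid stood high at the fovea in the left eye of RM04 (535 CPM) and low at the perimacula in the left eye of RM03 (446 CPM). In retina, CFD stood low at the perimacula in the right eye of RM03 (0.622 CPM) and CFI stood high at the periphery in the left eye of RM03 (14.1 CPM).

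Differences between the tissues in a location contrast, on the log2 scale and as retina minus RPE/choroid, passed the interaction test between fovea and periphery for CFD (-3.78), SERPING1 (-1.23), CD46 (-1.22), the C2 or CFB entry (-1.10, not without the left eye of RM03, at -0.66 with an adjusted p of 0.232), CFI (-0.92), C1R (-0.72) and C1S (-0.65). Between fovea and nasal location they passed for CD46 (-0.66), C1S (-0.64) and SERPING1 (-0.55), and between fovea and perimacula for CD46 (-0.65).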

How the results depend on the processing

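Of 239 counts of called members under alternatives, 218 stayed within 1.5 times the value above. Those that did not were, in retina, fovea against perimacula under library totals alone (4, from 2) and nasal location against periphery with at least 10 counts in every library or under library totals alone (6 each, from 3); in RPE/choroid, fovea against perimacula under DESeq2 (1, from 0) and perimacula against nasal location without covariate, without a filter or with the replicate block (0 each, from 1). The difference between tissues in fovea against perimacula went from 1 to 2 with the compared groups alone, under DESeq2 and under library totals alone, and to 3 with nasal libraries included. Leaving out each eye gave 1 to 3 in retina fovea against perimacula, 3 to 5 in RPE/choroid perimacula against periphery (from 5, lowest without the left eye of RM04), 0 to 0 in RPE/choroid perimacula against nasal location, and 0 to 1 and 1 to 3 for the tissue difference over fovea and perimacula and over fovea and nasal location. The replicate block changed no other count of members; it ended the call of the C2 or CFB entry between fovea and nasal location in retina (-0.62, adjusted p = 0.052).

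Directions turned only for uncalled values near 0. In RPE/choroid, C3 between fovea and periphery stood at -0.046 under library totals alone and at -0.077 to 0.30 without an eye, C1R at -0.12 to 0.066 there, CD46 between fovea and nasal location at 0.0044 under library totals alone and -0.062 to 0.079, and CFI there at -0.040 to 0.065. The tissue difference of CD59 over fovea and periphery stood at -0.0024 under DESeq2 and RLE, at -0.024 with nasal libraries and at -0.071 to 0.15 without an eye, that of C1R over fovea and perimacula at -0.24 to 0.072, and that of the C2 or CFB entry over fovea and nasal location at -0.35 to 0.077. The cause was not tested.

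Counts over all genes moved by more than 1.5 times mainly in weak contrasts. In RPE/choroid, fovea against perimacula (7) ranged from 0 to 357, fovea against nasal location (57) from 0 to 490, perimacula against nasal location (484) from 19 to 1677 and perimacula against periphery (5471) fell to 3314 without the left eye of RM04; in retina, perimacula against nasal location (231) ranged from 14 to 785 and fovea against perimacula (5416) fell to 3225 and 3406 without the right eye of RM03 or RM04; for the tissue differences, fovea against perimacula (1872) fell to 480 and 368 without these eyes and fovea against nasal location (3853) to 2510 and 2548 without the left eye of RM04 or the right eye of RM03. Library totals alone shifted the median of all genes by -0.13 and -0.17 on the log2 scale for fovea and nasal location against periphery in RPE/choroid, by 0.12 for perimacula against nasal location and by 0.17 for the tissues at the nasal location; CFI then lost its RPE/choroid calls against the periphery at the perimacula and the nasal location (adjusted p = 0.0795 and 0.0689).

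In retina, low counts limit CFD, C1S, the C2 or CFB entry and the second C1R identifier, which was not tested between locations there. The 2 animals limit every comparison.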

Other observations

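Of 15 interferon-responsive genes found, 6 were higher at the periphery and 3 at the fovea in retina (background 67.0% called in either direction), and 4 and 1 in RPE/choroid (background 44.1%). In retina IFIT3 was at 5.12 CPM at the fovea and 10.2 CPM at the periphery (adjusted p = 4.74e-05). Between the tissues at the fovea, 15 of 15 were higher in RPE/choroid, where 36.8% of all genes were called in that direction. IFIT3 was named after its values were seen.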
